A study of Mus musculus with 12 samples.

Results

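The genes described here are 10 mouse chemokines that helper T cells can make: Ccl3, Ccl4, Ccl5, Ccl9, Ccl20, Cxcl10, Cxcl16, Ccl22, Ccl1 and Xcl1. They were taken by gene symbol from both expression tables, and all 10 of the 10 were found among the 45703 genes. The list names genes by symbol alone, and it was drawn up with earlier results of these data known. RNA was sequenced from CD4+ T cells in 12 libraries, 3 in each of 4 groups: Th17 KO, Th17 WT, Th1 KO and Th1 WT. KO cells carried Slc2a3-fl/fl with Cd4-cre, WT cells were labelled wild type, and the background was C57BL/6 in all groups. In all groups naive T cells had been cultured for 3 days with anti-CD3/CD28 and with cytokines for either Th17 or Th1 differentiation. Slc2a3 encodes the glucose transporter GLUT3, and the Cd4-cre transgene is active from an immature stage in the thymus, so that the deletion precedes the culture. The labels do not say whether the WT mice carried the floxed allele or the Cre, nor whether replicates came from separate mice or cultures. The p-values below therefore speak only of the scatter among the libraries at hand.

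Chemokines are small secreted proteins that bind G protein-coupled receptors on leukocytes and direct their migration. Activated Th1 cells are known as a source of Ccl3, Ccl4 and Ccl5, which draw macrophages and effector T cells, whereas Th17 cells are known for Ccl20, the ligand of CCR6, a receptor that Th17 cells carry themselves. Other chemokines of the list are better known from macrophages, dendritic cells and stromal cells, Ccl22 and Cxcl10 among them.

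Of the 10 genes, 6 lie on mouse chromosome 11 (Ccl1, Ccl3, Ccl4, Ccl5, Ccl9 and Cxcl16), 2 on chromosome 1 (Ccl20 and Xcl1), and Cxcl10 and Ccl22 on chromosomes 5 and 8. Promoters of 7 were matched by symbol in RefSeq sequences of build GRCm38.p6, and Ccl4, Ccl5 and Cxcl16 had no entry. The 250 bases before the annotated start are printed for 4 genes, the KO-high Th17 gene Ccl20, the CC chemokines Ccl3 and Ccl9 and the interferon-inducible Cxcl10, because they differ in their motifs although all 4 transcripts were higher in KO cells of the Th17 lineage. They are chr1:83116516-83116765 (plus strand) for Ccl20, chr11:83649379-83649628 (minus) for Ccl3, chr11:83578637-83578886 (minus) for Ccl9 and chr5:92348890-92349139 (minus) for Cxcl10, each written 5′ to 3′ on the strand of its gene, with motif matches in capitals.
Ccl20: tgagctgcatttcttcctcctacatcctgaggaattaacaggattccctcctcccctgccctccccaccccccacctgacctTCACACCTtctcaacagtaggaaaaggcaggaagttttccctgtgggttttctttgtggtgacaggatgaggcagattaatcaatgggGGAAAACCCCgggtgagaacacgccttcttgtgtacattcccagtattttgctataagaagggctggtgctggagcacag
Ccl3: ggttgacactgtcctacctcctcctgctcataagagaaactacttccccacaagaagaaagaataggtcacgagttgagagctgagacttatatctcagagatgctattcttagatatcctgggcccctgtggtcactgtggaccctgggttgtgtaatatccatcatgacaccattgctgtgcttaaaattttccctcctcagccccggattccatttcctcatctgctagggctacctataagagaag
Ccl9: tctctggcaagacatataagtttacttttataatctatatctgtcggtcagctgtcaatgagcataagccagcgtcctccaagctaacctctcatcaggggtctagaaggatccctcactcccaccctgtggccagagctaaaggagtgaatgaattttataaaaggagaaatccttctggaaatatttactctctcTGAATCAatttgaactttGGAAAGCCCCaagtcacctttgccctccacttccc
Cxcl10: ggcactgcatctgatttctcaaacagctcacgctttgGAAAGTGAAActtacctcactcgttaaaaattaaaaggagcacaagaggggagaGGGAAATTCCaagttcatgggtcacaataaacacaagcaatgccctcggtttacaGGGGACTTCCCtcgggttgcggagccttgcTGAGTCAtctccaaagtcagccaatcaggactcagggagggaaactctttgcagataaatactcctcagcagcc
Searched on both strands were the NF-kappaB consensus, the AP-1 motif TGANTCA, the interferon-stimulated response element core (GAAA, any 2 bases, GAAA), the STAT motif TTCNNNGAA and the T-box motif AGGTGTGA. The capitals mark in Ccl20 the T-box motif on the opposite strand and then an NF-kappaB match, in Ccl9 the AP-1 motif and then an NF-kappaB match, and in Cxcl10 the response element core, an NF-kappaB match, a pair of NF-kappaB matches that overlap each other, and the AP-1 motif. Ccl3 held none of the 5 motifs in this window, which says only that these letters are not there.

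The NF-kappaB consensus was present in 4 of the 7 promoters (Ccl1, Ccl9, Ccl20 and Cxcl10), against 7.25% of the 32851 promoters in the table. The AP-1 motif was present in 2 of 7, against 6.75%, the response element core in 1 of 7, against 2.98%, the T-box motif in 1 of 7, against 1.12%, and the STAT motif in 0 of 7, against 7.02%. These matches describe the sequence and not binding, which was not measured.

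The libraries held 16596283 to 28496606 reads assigned to genes, recovered from the deposited TPM (reads divided by exon length, with each library scaled to an equal sum). At this depth 3 reads in 1 kb of exon amount to 0.19 to 0.437 TPM, a floor for counting error alone, because PCR copies are not separate molecules. Slc2a3 had 5.14, 18.7 and 3.30 TPM in Th17 KO and 379, 109 and 44.6 TPM in Th17 WT libraries, and 6.79, 4.49 and 7.97 TPM in Th1 KO and 398, 95.6 and 64.7 TPM in Th1 WT libraries, so the targeted transcript fitted the labels in all 12. The 7 Th17 markers summed to 479 to 663 TPM in Th17 KO and 668 to 1194 TPM in Th17 WT libraries and to 12.4 to 30.4 TPM in Th1 KO and 23.0 to 25.3 TPM in Th1 WT libraries, and the Th1 regulator Tbx21 stood at 206 to 255 TPM in Th1 KO and 95.2 to 131 TPM in Th1 WT libraries. In Th17 cells Tbx21 had 19.2, 81.2 and 10.3 TPM in KO and 2.38, 4.66 and 3.88 TPM in WT libraries, so that Th17 KO replicate 2 came near the Th1 WT range. Of the 10 T cell markers none stood under 1 TPM in every library of a group. That library also stood apart, with a median absolute log2 difference of 0.626 from its group, against 0.168 to 0.433 in the other 11 libraries.

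Most of the chemokine transcripts were more abundant in KO cells. The summed level of the 10 was 940 ± 111 TPM in Th17 KO and 120 ± 13.5 TPM in Th17 WT libraries, and 2970 ± 738 TPM in Th1 KO and 315 ± 25.7 TPM in Th1 WT libraries (SD, n = 3 each). In a bulk sample, a change in the number of cells that make a transcript and a change in transcript per cell cannot be told apart. Genes were tested where at least 3 libraries of a fit reached 1 TPM. In Th17 cells 8 of the 9 chemokines tested were higher in KO and 0 lower (limma on log2(TPM + 1), adjusted p under 0.05), against 4.6% of all 13823 genes tested that were higher and 2.7% that were lower. For 4 of the 9 (Ccl9, Ccl22, Xcl1 and Cxcl16) no WT library reached 1 TPM, so they entered the test through the KO libraries alone and had to differ. The other 5 were all called higher. The count of 8 was 6 with no filter and 9 with all 12 libraries in the fit, where Ccl1 was added through KO libraries alone. The count was 3 without KO replicate 1 or 3 or WT replicate 3, 4 without WT replicate 2, 5 without KO replicate 2 and 6 without WT replicate 1. Without a KO library the 4 that had entered through KO libraries alone fell under the filter, so that only the other 5 were tested. In Th1 cells 5 of the 7 tested were higher in KO and 0 lower, against 17.6% of all 13487 genes tested that were higher and 13.7% that were lower, and Cxcl16 had entered through KO libraries alone. Of the other 6, 4 were called higher. The median log2 fold change over all genes tested was 0.04 in Th17 and 0.03 in Th1 cells. The 2 genotype comparisons do not share libraries, but they are not known to be independent. Same-numbered Th17 WT and Th1 WT libraries correlated in their deviations from group means (0.72, 0.26 and 0.53).

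**Figure D1:**
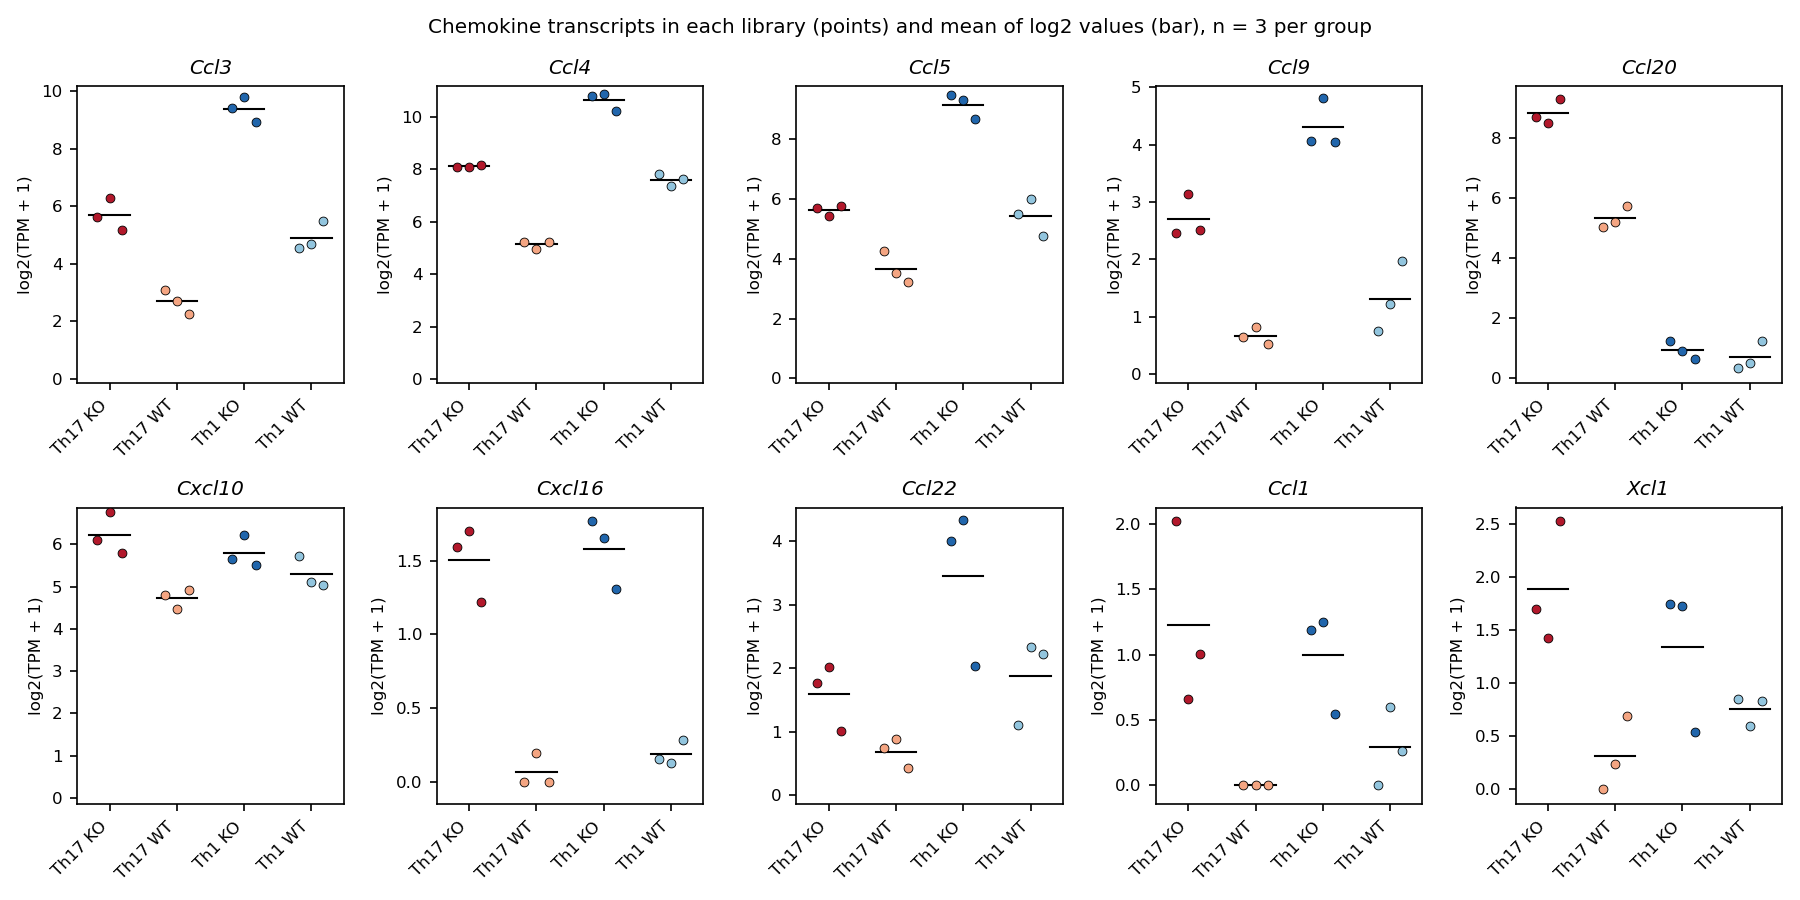
Level of each chemokine in every library, as log2(TPM + 1) on the vertical axis, for the 4 groups of 3 libraries; points are libraries in replicate order and the bar is their mean. Ccl20 is high in both Th17 groups, while Ccl3, Ccl4 and Ccl5 reach their highest values in Th1 KO (484 to 898 TPM for Ccl3), and each vertical axis has its own range.

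Ccl4, an attractant of macrophages and effector T cells, was the most abundant of the 10 transcripts in both Th1 groups. It had 1777, 1869 and 1180 TPM in Th1 KO and 222, 164 and 198 TPM in Th1 WT libraries. In Th17 cells it had 271, 270 and 284 TPM in KO and 36.2, 29.9 and 36.0 TPM in WT libraries. The groups did not overlap in either lineage, and the 3 Th17 KO libraries lay close together. The log2 fold change was 2.98 ± 0.18 in Th17 (SE, limma adjusted p = 0.000711) and 3.02 ± 0.20 in Th1 (adjusted p = 4.96e-05). The difference between these effects was -0.04 on the log2 scale, with a 95% interval of -0.63 to 0.55.

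Ccl3, a ligand of CCR1, had 686, 898 and 484 TPM in Th1 KO and 22.3, 24.9 and 44.1 TPM in Th1 WT libraries. The lowest KO library was above the highest WT library, and the log2 fold change of 4.48 ± 0.29 was the largest of any of the 10 genes in either genotype comparison on the log2(TPM + 1) scale (limma adjusted p = 4.36e-05). With voom on the recovered reads it was 4.42, and Cxcl16 in Th17 cells was larger (5.19). In Th17 cells Ccl3 had 48.5, 77.4 and 35.4 TPM in KO and 7.58, 5.54 and 3.78 TPM in WT libraries, again without overlap (3.01 ± 0.37, adjusted p = 0.00657). The Th17 effect minus the Th1 effect was -1.46 (95% interval -2.55 to -0.38), which did not pass after adjustment over all genes (adjusted p = 0.437).

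The pair changed in unequal proportion in Th1 cells. The level of Ccl4 divided by that of Ccl3 was 2.08 to 2.59 in Th1 KO and 4.50 to 9.97 in Th1 WT libraries, without overlap, whereas it was 3.49 to 8.01 in Th17 KO and 4.78 to 9.51 in Th17 WT libraries, where the groups overlapped. The annotated spans of Ccl3 (chromosome 11, 83647843 to 83649378, minus strand) and Ccl4 (83648624 to 83664683, plus strand) share 755 bases in the deposited annotation, and the libraries do not mark the strand. In the GENCODE annotation of the same build 211 of the 766 exon bases of Ccl3 lie in the shared stretch, and Ccl4 starts outside it, at 83662584. How reads from that stretch were assigned was not tested, and both levels carry this uncertainty.

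Ccl5, which binds CCR1 and CCR3, had 701, 633 and 403 TPM in Th1 KO and 43.8, 63.1 and 26.0 TPM in Th1 WT libraries. It had 50.2, 41.6 and 52.8 TPM in Th17 KO and 17.9, 10.4 and 8.28 TPM in Th17 WT libraries. KO and WT did not overlap in either lineage, and the Th17 KO libraries lay in the range of the Th1 WT libraries. The log2 fold change was 3.73 ± 0.32 in Th1 (limma adjusted p = 0.000130) and 1.96 ± 0.31 in Th17 (adjusted p = 0.0150). The Th17 call was lost without KO replicate 1 (adjusted p = 0.0924) or 3 (0.0584) and without WT replicate 2 (0.0883) or 3 (0.0812). The Th17 effect minus the Th1 effect was -1.77 (95% interval -2.82 to -0.72, unadjusted p = 0.00327, limma adjusted p = 0.200).

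Ccl9, a CCR1 ligand of rodents, was the least abundant of these CC chemokines. In Th1 cells it had 15.7, 27.0 and 15.5 TPM in KO and 0.692, 1.33 and 2.93 TPM in WT libraries. In Th17 cells it had 4.51, 7.79 and 4.73 TPM in KO and 0.560, 0.772 and 0.445 TPM in WT libraries. No WT library reached the lowest KO library of its lineage. In Th17 cells the filter fixes this order, because Ccl9 entered through KO libraries alone. The log2 fold change was 2.99 ± 0.33 in Th1 (limma adjusted p = 0.000375) and 2.04 ± 0.26 in Th17 (adjusted p = 0.00791), where the call was lost without WT replicate 3 (adjusted p = 0.0636). Over the alternatives the Th17 value of Ccl9 ran from 0.92 with a pseudocount of 5 to 3.08 with voom.

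Ccl20, the CCR6 ligand, had the highest mean level of the 10 in both Th17 groups. It had 423, 366 and 629 TPM in Th17 KO and 32.2, 36.2 and 53.2 TPM in Th17 WT libraries. In Th1 cells it stayed at 1.36, 0.868 and 0.580 TPM in KO (17, 7 and 4 reads) and 0.259, 0.433 and 1.37 TPM in WT libraries (2, 4 and 11 reads), so that the Th1 groups overlapped near the detection limit and Ccl20 fell under the filter there. In Th17 cells the groups did not overlap, the KO mean was 11.7 times the WT mean, and the log2 fold change was 3.51 ± 0.28 (limma adjusted p = 0.00154). That call held under each alternative run, with log2 fold changes of 3.28 to 3.71. The Th17 effect minus the Th1 effect was 3.27 ± 0.43 (limma adjusted p = 0.00584). Of the 10 chemokines Ccl20 was the 1 whose genotype effects differed between lineages by this test, against 0.638% of all 14579 genes tested. The test rests on a few reads in Th1 cells and did not pass with a pseudocount of 0.1 (adjusted p = 0.110) or with voom on the recovered reads (0.269).

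**Figure D2:**
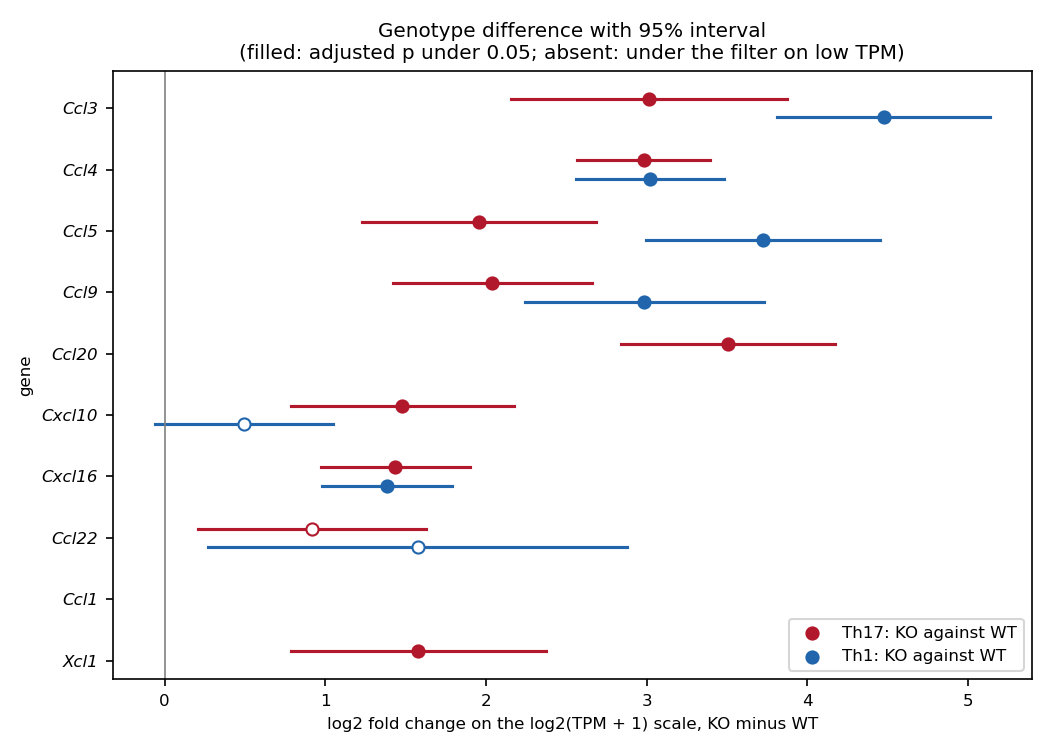
Log2 fold change of KO against WT on the log2(TPM + 1) scale (horizontal axis) with its 95% interval for each chemokine, Th17 above Th1; filled points passed at an adjusted p under 0.05. The Th17 and Th1 points coincide for Ccl4 (2.98 and 3.02) and lie further apart for Ccl3 (3.01 and 4.48) and Ccl5 (1.96 and 3.73). The difference between lineages passed for neither Ccl3 nor Ccl5 (limma adjusted p = 0.437 and 0.200). Ccl1 has no point because it was under the filter in both lineages.

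Among the CXC chemokines, Cxcl10, an interferon-inducible ligand of CXCR3, had 67.1, 107 and 54.4 TPM in Th17 KO and 26.9, 21.1 and 29.3 TPM in Th17 WT libraries. These groups did not overlap, and the log2 fold change was 1.48 ± 0.30 (limma adjusted p = 0.0301). In Th1 cells Cxcl10 had 48.9, 73.4 and 44.4 TPM in KO and 51.9, 33.6 and 32.0 TPM in WT libraries, which overlapped, and the log2 fold change of 0.49 ± 0.24 did not pass (adjusted p = 0.158). The effects were not shown to differ between lineages (0.99, 95% interval 0.10 to 1.87, adjusted p = 0.649). The Th17 call was lost without filter on low values (adjusted p = 0.0589), without KO replicate 1 (0.121) or 3 (0.0505) and without WT replicate 1 (0.0858), 2 (0.144) or 3 (0.112). In Th1 cells the opposite happened without WT replicate 1, where Cxcl10 passed (0.71, adjusted p = 0.0327).

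Cxcl16, a membrane-anchored chemokine that binds CXCR6 and is released by ADAM10 and ADAM17, was scarce. It had 2.01, 2.25 and 1.33 TPM in Th17 KO (47, 28 and 38 reads) and 0, 0.148 and 0 TPM in Th17 WT libraries (0, 3 and 0 reads). In Th1 cells it had 2.41, 2.14 and 1.47 TPM in KO (68, 39 and 23 reads) and 0.115, 0.0957 and 0.221 TPM in WT libraries (2, 2 and 4 reads). Every KO library was above every WT library in both lineages, an order that the filter fixes, because Cxcl16 entered through KO libraries alone. Th17 KO and Th1 KO libraries overlapped. The log2 fold change was 1.44 ± 0.20 in Th17 (limma adjusted p = 0.00995) and 1.38 ± 0.18 in Th1 (adjusted p = 0.000734), values that depend on the scale at such low WT levels. Over the alternatives Cxcl16 ran from 0.44 with a pseudocount of 5 to 5.19 with voom in Th17, and from 0.44 to 3.55 in Th1 with the same settings. The Th17 call was lost without WT replicate 2 (adjusted p = 0.0521) or 3 (0.0708).

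Ccl22, a ligand of CCR4, passed in neither lineage. It had 15.1, 19.2 and 3.08 TPM in Th1 KO and 1.15, 4.02 and 3.65 TPM in Th1 WT libraries, and KO replicate 3 lay within the WT range. The Th1 log2 fold change was 1.57 ± 0.57 (limma adjusted p = 0.0661). It became 2.29 without that library, and then passed (adjusted p = 0.00729). In Th17 cells Ccl22 had 2.40, 3.06 and 1.02 TPM in KO and 0.671, 0.839 and 0.347 TPM in WT libraries, without overlap (0.92 ± 0.30, adjusted p = 0.117). The filter fixes this separation, because Ccl22 entered there through KO libraries alone.

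Xcl1, whose receptor XCR1 marks cross-presenting dendritic cells, had 2.25, 1.69 and 4.78 TPM in Th17 KO and 0, 0.172 and 0.607 TPM in Th17 WT libraries. It entered the Th17 test through KO libraries alone. The log2 fold change was 1.58 ± 0.34 (limma adjusted p = 0.0361), and the call was lost with a pseudocount of 5 (adjusted p = 0.0726), with no filter (0.0813) and without WT replicate 1 (0.120), 2 (0.153) or 3 (0.0979). The value of Xcl1 ran from 0.57 to 3.35 over the alternatives. In Th1 cells Xcl1 was under the filter, at 2.36, 2.30 and 0.449 TPM in KO and 0.803, 0.502 and 0.773 TPM in WT libraries, with KO replicate 3 below all 3 WT libraries.

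Ccl1, the ligand of CCR8, was under the filter in both lineages when each was fitted alone. With all 12 libraries in the fit it was tested, but no WT library reached 1 TPM, so it entered through KO libraries alone. In that fit it was called in Th17 (1.23 ± 0.32, limma adjusted p = 0.0203) and not in Th1 (0.71 ± 0.32, adjusted p = 0.163). It had 3.07, 0.577 and 1.01 TPM in Th17 KO (20, 2 and 8 reads) and no read in the 3 Th17 WT libraries, where 3 reads would have stood at 0.467 to 0.556 TPM. In Th1 cells it had 1.27, 1.38 and 0.460 TPM in KO (10, 7 and 2 reads) and 0, 0.515 and 0.198 TPM in WT libraries (0, 3 and 1 reads). Of the 5 chemokines that were tested in Th17 cells and reached 1 TPM in a WT library, all 5 had every KO library above every WT library, against 18.5% of all genes tested. For the 4 that entered through KO libraries alone the filter fixes this order. In Th1 cells 4 of 6 had it, against 26.3% of all genes tested.

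On average Ccl20 took the largest share of the chemokine transcripts in both Th17 groups and Ccl4 in both Th1 groups. Ccl20 made up 49.7% ± 8.66 of the summed TPM of the 10 in Th17 KO and 33.7% ± 7.00 in Th17 WT libraries (SD, n = 3 each), and their ranges did not overlap. Ccl4 was close to constant in Th17 cells, at 29.5% ± 2.52 in KO and 28.5% ± 1.19 in WT libraries. Cxcl10 made up 8.31% ± 3.59 in Th17 KO and 21.4% ± 1.19 in Th17 WT libraries, and 1.89% ± 0.33 in Th1 KO and 12.3% ± 2.50 in Th1 WT libraries, and its share was lower in every KO library of each lineage. In Th1 cells Ccl4 made up 54.3% ± 1.20 in KO and 61.6% ± 4.85 in WT libraries, and Ccl3 made up 23.1% ± 2.21 in KO and 9.75% ± 4.02 in WT libraries. These shares are descriptions and were not tested.

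**Figure D3:**
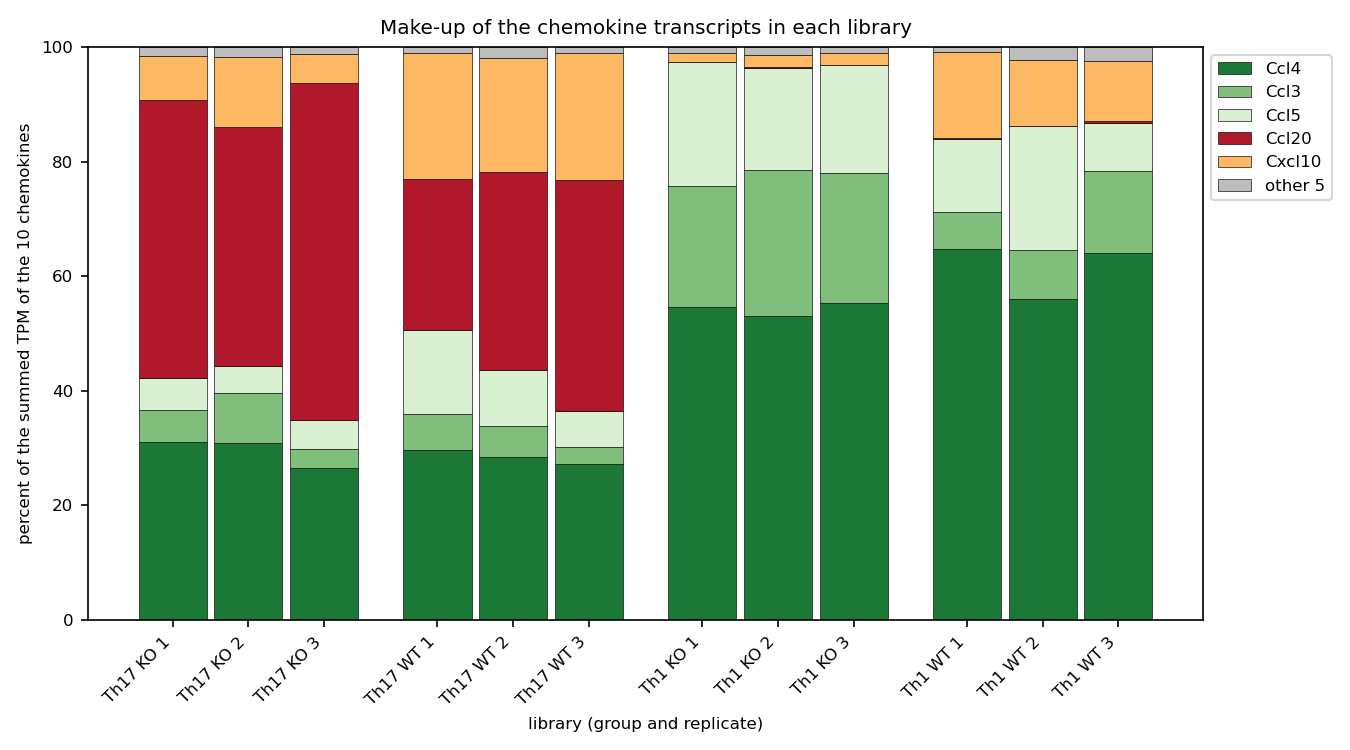
Share of each chemokine in the summed TPM of the 10, in percent (vertical axis), for each of the 12 libraries. Ccl20 fills the largest or second largest section of every Th17 library (49.7% on average in Th17 KO and 33.7% in Th17 WT) and is barely visible in Th1 libraries, where Ccl4, Ccl3 and Ccl5 make up most of the sum.

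Set across the 2 tables, which is possible on TPM because each library is scaled on its own, Ccl20 was higher and Ccl3, Ccl4 and Ccl5 were lower in Th17 than in Th1 cells, in both genotypes. In KO cells, Ccl20 was higher in Th17 (log2 fold change 7.92 ± 0.30, limma adjusted p = 6.29e-08), 1 of the 10 against 3.35% of all genes tested. Ccl3 (-3.68 ± 0.35, adjusted p = 5.00e-05), Ccl5 (-3.53 ± 0.34, 5.42e-05), Ccl4 (-2.51 ± 0.19, 9.21e-06) and Ccl9 (-1.60 ± 0.33, 0.0124) were lower in Th17 KO than in Th1 KO cells, 4 of the 10 against 2.56%. The Ccl9 call was lost without Th1 KO replicate 2 (adjusted p = 0.0692). Ccl22 missed the threshold (-1.86 ± 0.54, adjusted p = 0.0691) but passed with median-of-ratios scaling (0.0452), with voom (0.0458) and without Th1 KO replicate 3 (0.00403).

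In WT cells the same comparison gave Ccl20 higher in Th17 (4.64 ± 0.30, limma adjusted p = 3.78e-06), 1 of the 10 against 1.85% of all genes tested. Lower in Th17 WT than in Th1 WT cells were Ccl4 (-2.48 ± 0.19, adjusted p = 1.30e-05), Ccl3 (-2.22 ± 0.35, 0.00314) and Ccl5 (-1.76 ± 0.34, 0.0116), 3 of the 10 against 1.78%. The Ccl5 call was lost without Th17 WT replicate 2 (0.0600) or 3 (0.0628) and without Th1 WT replicate 2 (0.0556). Neither Ccl9 (-0.65 ± 0.33, limma adjusted p = 0.402) nor Ccl22 (-1.20 ± 0.54, 0.330) passed in WT cells. Ccl1, Xcl1, Cxcl10 and Cxcl16 passed in neither genotype. Their 95% intervals on the log2 scale were widest for Xcl1, at -1.24 to 0.34 in WT and -0.24 to 1.34 in KO cells. With voom on the recovered reads the WT values were larger for Xcl1 (-1.67 ± 0.91), Ccl1 (-1.72 ± 0.97) and Cxcl16 (-1.90 ± 0.75), and did not pass either. The median of all genes lay at 0.14 in WT and 0.13 in KO cells in these comparisons, and at -0.01 and -0.02 after median-of-ratios scaling.

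The order of the groups was thus not the same for each gene. Ccl3, Ccl4, Ccl5 and Ccl9 ran from Th1 KO, the highest, through Th17 KO and Th1 WT to Th17 WT, by their means. For Ccl9 the step between the WT groups did not pass, and their libraries overlapped. Th17 KO was not tested against Th1 WT. The libraries of these groups overlapped for Ccl3 and Ccl5 and did not overlap for Ccl4 (270 to 284 TPM in Th17 KO and 164 to 222 TPM in Th1 WT) and Ccl9. For Ccl20 both Th17 groups stood above both Th1 groups. For Cxcl16 both KO groups stood above both WT groups, as they did by their means for Ccl3, Ccl4, Ccl5 and Ccl9. Within each lineage the filter fixes this order for Cxcl16.

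Transcripts of the receptors that bind these chemokines did not all change in 1 direction. Of 9 such receptors 8 were tested, and in Th17 cells 2 were higher in KO and 0 lower, with a median log2 fold change of 0.44 over the 8, against 4.6% and 2.7% of all genes tested. These were Ccr3, which binds Ccl5, with 8.96, 6.24 and 8.02 TPM in KO and 2.24, 1.90 and 2.25 TPM in WT libraries (log2 fold change 1.47 ± 0.25, limma adjusted p = 0.0177), and Cxcr6, the receptor of Cxcl16, with 73.3, 145 and 68.5 TPM in KO and 35.6, 32.2 and 32.8 TPM in WT libraries (1.40 ± 0.31, adjusted p = 0.0407). Ccr6, the receptor of Ccl20, had 20.2, 19.2 and 17.8 TPM in Th17 KO and 22.4, 23.8 and 24.7 TPM in Th17 WT libraries and did not pass (-0.30 ± 0.21, adjusted p = 0.412).

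In Th1 cells 4 receptors were higher in KO and 3 lower (median 0.39), against 17.6% and 13.7% of all genes tested. Ccr4, the receptor of Ccl22, fell to 4.21, 4.67 and 4.54 TPM in KO, against 25.6, 19.6 and 16.7 TPM in WT libraries (-1.96 ± 0.19, limma adjusted p = 0.000201). Cxcr3, the receptor of Cxcl10, fell to 17.7, 20.9 and 23.3 TPM in KO, against 47.3, 88.5 and 45.4 TPM in WT libraries (-1.45 ± 0.26, adjusted p = 0.00329). Ccr8, the receptor of Ccl1, fell to 8.67, 9.46 and 14.0 TPM in KO, against 33.6, 20.3 and 23.5 TPM in WT libraries (-1.19 ± 0.24, adjusted p = 0.00560). Higher in Th1 KO were Ccr3 (1.16), Ccr1 (0.94), Cxcr6 (0.87) and Ccr6 (0.51). Xcr1 stayed under 1 TPM in all 12 libraries. No difference between the receptor effects of the lineages passed, Ccr4 being nearest (1.30 ± 0.27, limma adjusted p = 0.0595). Of 9 other chemokine receptors 6 were tested, and 0 passed in Th17 cells (median -0.04), while 2 were higher in Th1 KO, Ccr2 (0.86 ± 0.16) and Cxcr1 (0.79 ± 0.23), and 0 lower (median 0.33).

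**Figure D4:**
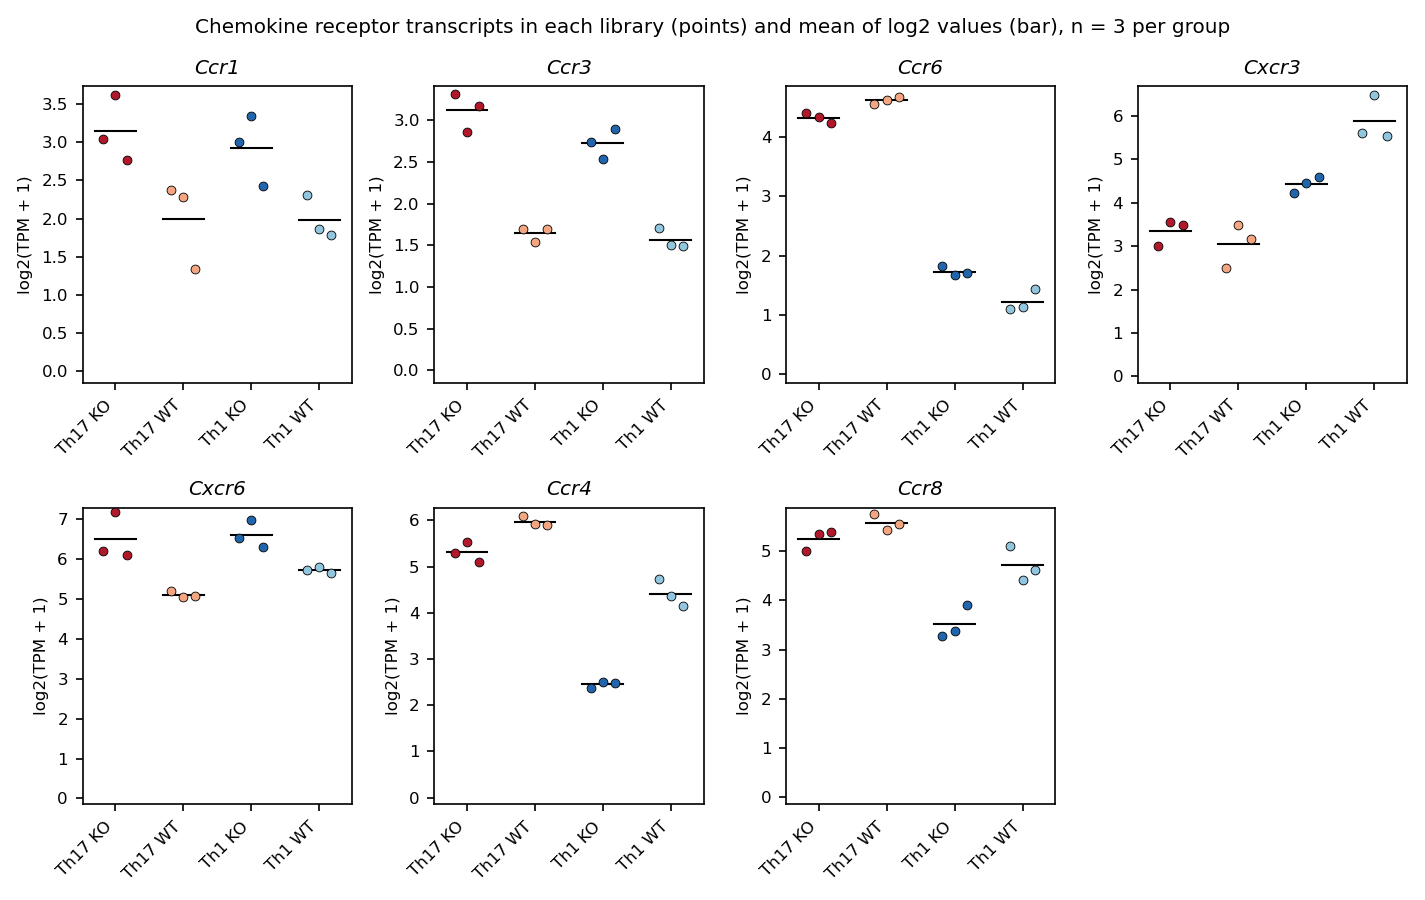
Level of 7 chemokine receptors in every library, as log2(TPM + 1) on the vertical axis, for the 4 groups of 3 libraries; points are libraries in replicate order and the bar is their mean. Ccr4, Ccr8 and Cxcr3 are lower in Th1 KO than in Th1 WT libraries, Ccr3 and Cxcr6 are higher in KO libraries of both lineages, and each vertical axis has its own range.

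Most other chemokine ligands were under the filter: of 28, 6 were tested in Th17 (median log2 fold change 1.91) and 5 in Th1 cells (2.01). In both lineages the same 4 were higher in KO: Cxcl11, a CXCR3 ligand whose gene is disrupted in C57BL/6 mice, the platelet chemokines Pf4 and Ppbp, and Ccl6, a rodent CCR1 ligand. Cxcl11 in Th17 and Ccl6 in Th1 cells had entered through KO libraries alone and had to differ, which leaves 3 of 5 and 3 of 4, against 4.6% and 17.6% of all genes tested. Cxcl11 had 7.16, 3.72 and 11.3 TPM in Th17 KO and 0.583, 0.278 and 0.245 TPM in Th17 WT libraries, and 16.3, 7.12 and 31.0 TPM in Th1 KO and 2.14, 1.08 and 1.62 TPM in Th1 WT libraries. Pf4 reached 29.1 to 54.0 TPM in Th17 KO and 1.75 to 9.36 TPM in Th17 WT libraries, and 47.8 to 155 TPM in Th1 KO and 7.08 to 17.5 TPM in Th1 WT libraries. Of the decoy receptors and proteases that handle chemokines 4 were tested. Higher in KO were 1 in Th17 and 3 in Th1 cells, against 4.6% and 17.6% of all genes tested. Dpp4, a protease that trims their amino terminus, was higher in KO in both lineages (1.84 ± 0.37 in Th17 and 1.02 ± 0.20 in Th1, limma adjusted p = 0.0301 and 0.00522). The Cxcl16 sheddases Adam10 (1.34 ± 0.18) and Adam17 (0.72 ± 0.17) were higher in Th1 KO. In Th17 cells Adam10 (1.39 ± 0.60) and Adam17 (1.20 ± 0.59) did not pass (limma adjusted p = 0.208 and 0.255). Their effects were not shown to differ between lineages (0.04 ± 0.68 and 0.48 ± 0.66).

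Of 23 transcription factors known to act at chemokine genes, 4 were higher and 0 lower in Th17 KO (median 0.69), against 4.6% and 2.7% of all genes tested. Among them were Fos (2.70 ± 0.22, limma adjusted p = 0.00155), Irf1 (2.71 ± 0.30, 0.00498) and Nfkb1 (1.30 ± 0.29, 0.0427). The count was 7 with median-of-ratios scaling, with voom or with the replicate block and 2 with no filter. In Th1 KO 9 were higher (median 0.39), against 17.6% of all genes tested, with Eomes having entered through KO libraries alone. The lowest adjusted p belonged to Fos (1.66 ± 0.20), Irf1 (1.53 ± 0.18), Nfkb2 (1.37 ± 0.18) and Hif1a (1.23 ± 0.18), in that order, and 1 factor was lower. Irf1, an interferon-inducible factor, had 244, 367 and 191 TPM in Th17 KO and 32.1, 50.5 and 35.3 TPM in Th17 WT libraries. Immediate early genes, which respond to receptor signals and to handling, were higher for 6 of 16 tested in Th17 KO, against 4.6% of all genes, and 14 of 17 in Th1 KO, against 17.6%, with 0 lower in either (medians 1.15 and 1.37). The same shares stand behind the marker counts that follow. Lineage markers moved as well. Of 7 Th1 markers 3 were higher in Th17 KO (Ifng, Hlx and Il18r1), and 5 were higher and 1 lower in Th1 KO. Of 7 Th17 markers 0 passed in Th17 cells, and 4 were higher and 2 lower in Th1 KO (Il23r among the lower), where Il17a, Il17f and Il1r1 had entered through KO libraries alone. Of 10 T cell markers 1 was higher in Th17 KO (Cd28) and 6 in Th1 KO, with 0 lower. Their part in the chemokine levels was not tested.

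The KO libraries also held more transcript of some markers of other cells that can make chemokines, while other such markers did not rise or fell. Behind these counts, 4.6% of all genes tested were higher and 2.7% lower in Th17 KO, and 17.6% higher and 13.7% lower in Th1 KO. All 4 gamma delta T cell markers tested were higher in KO in both lineages (median 3.31 in Th17 and 2.97 in Th1), and the 6 listed summed to 165 to 256 TPM in Th17 KO and 17.5 to 20.8 TPM in Th17 WT libraries, and to 173 to 271 TPM in Th1 KO and 14.0 to 33.4 TPM in Th1 WT libraries. Trdc, the constant region of the delta chain, had 50.8, 81.2 and 59.8 TPM in Th17 KO and 4.40, 4.85 and 4.13 TPM in Th17 WT libraries. The 4 tested are all receptor constant regions, and the other listed markers, Sox13 and Blk, were under the filter. Sox13 had 0.0166 to 0.0299 TPM in Th1 KO and 0.0447 to 0.188 TPM in Th1 WT libraries. Blk had 0.329 to 2.57 TPM in Th1 KO and 0.0351 to 0.324 TPM in Th1 WT libraries. In Th17 cells KO and WT overlapped for both. Of the CD8 and NK cell markers 2 of 6 were higher in Th17 KO, and 4 of 6 were higher and 2 lower in Th1 KO, with Cd8a among the lower. The 8 listed summed to 96.5 to 109 TPM in Th17 KO and 51.7 to 69.5 TPM in Th17 WT libraries, and to 193 to 284 TPM in Th1 KO and 62.6 to 79.0 TPM in Th1 WT libraries.

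Myeloid markers were higher for 4 of 6 tested in Th17 KO (Tyrobp, S100a8, Fcer1g and Lyz2, of which S100a8 had entered through KO libraries alone) and 2 of 3 in Th1 KO (Tyrobp and Fcer1g). The 10 listed summed to 47.1 to 68.2 TPM in Th17 KO and 12.4 to 14.6 TPM in Th17 WT libraries, and to 25.2 to 46.1 TPM in Th1 KO and 10.9 to 14.0 TPM in Th1 WT libraries. S100a8 and S100a9 were at 0 in every Th1 KO library, Adgre1, S100a8 and S100a9 in every Th17 WT library, and Csf1r, Adgre1 and S100a9 in every Th1 WT library. Dendritic cell markers were higher for 1 of 4 in Th17 KO and 3 of 4 in Th1 KO, and Clec9a and Siglech were at 0 in all 12 libraries. They summed to 821 to 939 TPM in Th17 KO and 541 to 1298 TPM in Th17 WT libraries, and to 780 to 850 TPM in Th1 KO and 601 to 1147 TPM in Th1 WT libraries, with overlap in both lineages. H2-Ab1, the most abundant of them, had lower means in KO, 415 against 730 TPM in Th17 and 379 against 700 TPM in Th1 cells. It passed in neither (limma adjusted p = 0.327 and 0.118).

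B cell markers were higher for 1 of 5 in Th17 KO (Igkc) and 0 of 5 in Th1 KO. The B cell sums were 132 to 198 TPM in Th17 KO and 114 to 153 TPM in Th17 WT libraries, and 68.4 to 475 TPM in Th1 KO and 88.1 to 112 TPM in Th1 WT libraries. Platelet markers were higher for 2 of 2 in both lineages (Pf4 and Ppbp, which are also chemokines), with sums of 33.3 to 72.6 TPM in Th17 KO and 2.60 to 11 TPM in Th17 WT libraries, and 58.7 to 175 TPM in Th1 KO and 9.16 to 21.6 TPM in Th1 WT libraries. Of the stromal and epithelial markers 1 of 2 was higher in Th17 KO (Epcam, through KO libraries alone) and 1 of 2 in Th1 KO (Pecam1), with sums of 23.5 to 75.6 TPM in Th17 KO and 8.85 to 21.9 TPM in Th17 WT libraries, and 12.9 to 17.2 TPM in Th1 KO and 7.32 to 11 TPM in Th1 WT libraries, and Col3a1, Krt8 and Cdh5 were at 0 throughout. The part of these cell types in the chemokine levels was not tested.

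Over the 12 libraries Ccl3, Ccl4 and Ccl5 followed each other (Pearson r of log2(TPM + 1) 0.98 for Ccl3 and Ccl4, 0.96 for Ccl3 and Ccl5 and for Ccl4 and Ccl5), and Ccl20 ran apart from them (r of -0.38 with both Ccl3 and Ccl4, and -0.47 with Ccl5). The genes whose pattern was most like that of Ccl3 were Lilrb4a and Nabp1 (r = 0.99 each), of Ccl4 Ifitm3 and Pdcd1lg2 (0.99 each) and of Ccl5 Anxa1 and B3galt2 (0.98 each). Ccl9 was most like Il22 (0.98) and Iltifb (0.97), Ccl20 like Cldnd1 and Tasp1 (0.99 each), Cxcl10 like Slfn3 and Gpr160 (0.93 each) and Cxcl16 like Wnk1 (0.99) and Rad51c (0.98). For Ccl22 they were the immunoglobulin genes Igkv1-117 and Ighg3 (0.94 each). For Xcl1 they were the histone genes H3c15 (0.93) and H3c14 (0.92), and for Ccl1 the histone genes H2bc7 and H2bc6 (0.91 each). The points share their groups, and these values describe 12 libraries of 4 groups. Without Th17 KO replicate 2 the nearest gene was another for 7 of the 10, for example Gzmd for Ccl3 (0.99) and Lilrb4a for Ccl5 (0.99). Taken as deviations from the 4 group means, the nearest gene was another for each of the 10, for example Ctsh for Ccl3 (0.92), Rab19 for Ccl5 (0.96) and Ighg2c for Ccl22 (0.94).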

How the data were processed

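Total RNA of 12 CD4+ T cell libraries was amplified with SMART-Seq v4, tagged with Nextera XT and sequenced from a single end, per the labels' protocols. Tools listed in the submitters' processing notes, with no roles given, are STAR 2.7.2b, featureCounts 1.6.4 of Subread, DESeq2 1.24.0, cutadapt and bcl2fastq 2.20.0.422, and the build listed is GRCm38.p6. The authors deposited a table of TPM per lineage, with coordinates and exon lengths, for 45703 genes, and other values (such as raw counts) were not used here. TPM times exon length gave whole reads for 100.0% of values, within 0.02 reads. Gene starts equalled RefSeq of GRCm38.p6 for 45701 genes.

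Groups came from the titles. Because the tables hold TPM, the planned test for TPM was used: limma was run on log2(TPM + 1), which understates changes of low genes, for genes reaching 1 TPM in at least 3 of the fitted libraries (limma 3.58.1 in R 4.3.3, mean-variance trend, two-sided, Benjamini-Hochberg over all genes, threshold 0.05). Genotypes were compared on the 6 libraries of a lineage. The interaction and Th17 against Th1 were fitted on all 12. The fits of the genotype comparisons were run on simulated reads, with an equal spread for every gene and changes set only in genes well above the filter. That run covered neither the interaction nor changes in the scarcest transcripts. The 10 members and the 16 lists beside them were chosen with earlier results of these data known. Named besides the members are Slc2a3, up to 4 called genes per list by adjusted p with its leading markers, other receptors of the members, and the 2 genes most like each member. Some genes of the lists are counted but not reported here by name. Markers at 0 and further genes were named after their values were seen. Same-numbered libraries correlated in their deviations from group means at 0.14, 0.41 and 0.23 between Th17 KO and Th17 WT and at 0.72, 0.26 and 0.53 between Th17 WT and Th1 WT. Different numbers gave -0.41 to 0.11 and -0.61 to 0.28. The numbers were taken to pair these groups, although Th17 WT 2 was slightly closer to Th1 WT 3 (0.28) than to Th1 WT 2 (0.26). Deviations cancel out within a group, so positive values for same numbers push those for different numbers down. These values therefore cannot establish the pairing. The main fits held no block for the numbers, and a fit with 1 is given below.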

Additional observations from a re-analysis of the deposited data

Results flagged for a closer look

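The genotype effect on Ccl20, the CCR6 ligand, differed between the lineages by the test of the difference itself: it was 3.27 larger on the log2 scale in Th17 than in Th1 cells (limma adjusted p = 0.00584). Every Th17 KO library (366 to 629 TPM) stood above every Th17 WT library (32.2 to 53.2 TPM), while the Th1 KO (0.580 to 1.36 TPM) and Th1 WT libraries (0.259 to 1.37 TPM) overlapped. The Th1 libraries held 2 to 17 reads of Ccl20, and the difference did not pass with a pseudocount of 0.1 (limma adjusted p = 0.110) or with voom on the recovered reads (0.269). Groups of 3 libraries are too small to look for single outlying values.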

How the results depend on the processing

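Over the alternatives, 707 values of single chemokines kept their direction and side of the threshold, 24 lost the call, 6 gained it and 12 changed sign. In Th17 KO against Th17 WT, 1009 genes passed, 2933 with all 12 libraries in the fit and 109 to 2158 with a library left out, and the chemokines called higher numbered 8, with 6 under no filter, 9 with all 12 libraries and 3 to 6 with a library left out. Without a KO library, Ccl9, Ccl22, Xcl1 and Cxcl16 fell under the filter. In Th1 KO against Th1 WT, 4220 genes passed, 2568 with all 12 libraries and 2594 to 4587 with a library left out, with 5 chemokines higher, or 4 to 6 in those fits. For the difference between the lineages 93 genes passed, 44 with a pseudocount of 0.1 and 21 to 171 with a library left out, and the 1 chemokine called became 0 with a pseudocount of 0.1 or voom, the cause of which was not tested. For Th17 WT against Th1 WT 309 to 1582 genes passed with a library left out, with 2 to 3 chemokines lower, and for Th17 KO against Th1 KO 449 to 1219, with 3 to 5 lower. In the difference between lineages, Cxcl16 gave 0.05, but -0.0033 with a pseudocount of 5, -0.045 with median-of-ratios scaling, 1.64 ± 0.84 with voom and -0.081 to 0.20 with a library left out, and Ccl4 gave -0.25 to 0.083. In Th17 KO against Th1 KO, with a library left out, Ccl1 gave -0.16 to 0.52 and Cxcl16 -0.21 to 0.070. With a block for the replicate number, 1399 genes passed in Th17, 4479 in Th1, 85 for the difference, 580 for the WT and 960 for the KO lineages, and among the chemokines it changed the call of Ccl22 alone, in Th17 KO against Th1 KO (adjusted p = 0.0440). The numbers were taken to pair neither Th1 KO with Th1 WT (correlations 0.16, 0.21 and -0.07) nor Th17 KO with Th1 KO (0.22, -0.04 and -0.19). The voom fit on recovered reads called 1311 genes in Th17 and 4512 in Th1. Depth limits the levels of Ccl1, which had at most 20 reads in a library, and of Xcl1, Cxcl16 and, in Th1 cells, Ccl20.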
